A study of Homo sapiens with 8 samples.

Results

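The genes of the cyclin-dependent kinase (CDK) inhibitors were described in 22Rv1 cells, an established human castration-resistant prostate cancer line, with and without the compound PCC0208017. The 8 genes, CDKN1A, CDKN1B, CDKN1C, CDKN2A, CDKN2B, CDKN2C, CDKN2D and CDKN3, were picked by symbol, and each matched 1 of the 58735 Ensembl gene rows of the count files. All 8 had enough counts to be tested. One group of 4 libraries (control) came from 22Rv1 cells given DMSO, the vehicle, and the other group of 4 (MARK3i) from 22Rv1 cells given PCC0208017, a compound the submitters call a MARK3 inhibitor (MARK3 is a protein kinase). The sources used here give neither dose nor duration. The cells are a single line, MARK3 activity was not measured, and what the compound does through MARK3 and through other targets cannot be told apart.

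CDK inhibitors hold back the cell cycle by binding cyclin-dependent kinases. The INK4 proteins (p16 from CDKN2A, p15 from CDKN2B, p18 from CDKN2C and p19 from CDKN2D) bind CDK4 and CDK6 and keep D-type cyclins from activating them. The CIP/KIP proteins (p21 from CDKN1A, p27 from CDKN1B and p57 from CDKN1C) bind a wider range of cyclin-CDK complexes, those of CDK2 among them. When these kinases are held in check the retinoblastoma protein stays bound to E2F transcription factors and genes for DNA replication stay off. CDKN3 encodes a phosphatase that removes the activating phosphate from CDK2 and belongs to neither family. In prostate tissue p27 is the best known of these proteins, since it is often low in prostate carcinoma. The values here are transcript levels, and protein levels were not measured.

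The control libraries held 12672817 to 13386143 counts and the MARK3i libraries 13517289 to 21271127. MARK3i replicate 2 was the deepest. Libraries of 1 group differed by more than sampling noise in every pair (1.71 to 9.47 chi-square units per degree of freedom, against 35.02 to 46.41 between groups), and control replicates 1 and 2 were closer to each other (1.74), as were 3 and 4 (1.71), than across these pairs. Whether replicates came from separate cultures is not in the labels, so p-values reflect only how far these libraries spread, which may be technical. Of the luminal prostate markers, all 6 listed were detected in every library, and 4 of the 6 fell with treatment, FOLH1 most (−0.75 ± 0.06). The other-lineage markers PTPRC, COL1A2, PECAM1, KRT5 and TP63 had at most 4 counts in any library. Of the 3 others listed, COL1A1, a collagen gene of fibroblasts, rose from 11.3 ± 2.20 to 18 ± 3.04 CPM (0.68 ± 0.13, adjusted p = 0.000158, edgeR), with every MARK3i library above the controls. The neuroendocrine marker SYP was at 89.9 ± 6.22 and 88.3 ± 4.23 CPM and did not pass (−0.03 ± 0.06, adjusted p = 0.751, edgeR). CHGA, another neuroendocrine marker, fell from 1.21 ± 0.668 to 0.662 ± 0.0863 CPM at 7 to 27 counts per library (−0.87 ± 0.36, adjusted p = 0.0438, edgeR), although its groups overlapped and the call was lost with DESeq2 (adjusted p = 0.122), without control replicate 4 (−0.46, adjusted p = 0.326) and in other alternatives. The summed level of the 8 markers of other cell types was scaled by total counts, without the TMM factors used for the other levels. It was 92.9 to 107 CPM in controls and 104 to 121 CPM in MARK3i libraries, and SYP alone made up most of it. The factors were 0.960 to 0.968 in controls and 1.011 to 1.059 in MARK3i libraries, so leaving them out raises MARK3i relative to control. The part of these shifts in the results below was not tested.

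The 250 bases before the transcription start are shown for the 6 members whose transcripts changed, to put the upstream sequence beside the values (RefSeq, GRCh38.p14; 5′ to 3′ on the gene's strand; 1 start per gene). Capitals mark every match, on either strand, to 5 short motifs: the E-box CACGTG, the forkhead motif GTAAACA, the cell cycle homology region TTTGAA, the GC box GGGCGG and the CCAAT box CCAAT. Adjoining GC boxes can share bases.
CDKN1A, chr6:36678464-36678713, plus strand: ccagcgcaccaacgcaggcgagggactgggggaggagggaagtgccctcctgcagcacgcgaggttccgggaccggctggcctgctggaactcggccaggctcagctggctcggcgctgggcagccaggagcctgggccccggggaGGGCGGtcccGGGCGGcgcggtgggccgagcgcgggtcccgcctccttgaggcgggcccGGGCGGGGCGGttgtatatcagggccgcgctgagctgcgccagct
CDKN1B, chr12:12717118-12717367, plus strand: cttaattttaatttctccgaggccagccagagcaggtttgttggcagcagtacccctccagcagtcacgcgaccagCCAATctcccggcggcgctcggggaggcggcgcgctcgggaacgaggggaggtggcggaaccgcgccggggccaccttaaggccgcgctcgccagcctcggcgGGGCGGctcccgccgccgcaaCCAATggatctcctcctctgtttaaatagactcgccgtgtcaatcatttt
CDKN2B, chr9:22009306-22009555, minus strand: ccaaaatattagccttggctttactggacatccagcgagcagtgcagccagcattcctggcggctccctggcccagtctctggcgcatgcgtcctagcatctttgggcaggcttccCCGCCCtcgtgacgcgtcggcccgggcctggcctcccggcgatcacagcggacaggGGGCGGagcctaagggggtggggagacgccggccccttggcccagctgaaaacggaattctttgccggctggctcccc
CDKN2C, chr1:50969995-50970244, plus strand: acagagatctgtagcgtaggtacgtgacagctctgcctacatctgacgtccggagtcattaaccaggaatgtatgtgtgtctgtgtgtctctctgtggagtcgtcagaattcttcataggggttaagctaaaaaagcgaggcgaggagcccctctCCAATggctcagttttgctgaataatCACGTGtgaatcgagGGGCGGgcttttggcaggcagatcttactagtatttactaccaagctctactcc
CDKN2D, chr19:10568980-10569229, minus strand: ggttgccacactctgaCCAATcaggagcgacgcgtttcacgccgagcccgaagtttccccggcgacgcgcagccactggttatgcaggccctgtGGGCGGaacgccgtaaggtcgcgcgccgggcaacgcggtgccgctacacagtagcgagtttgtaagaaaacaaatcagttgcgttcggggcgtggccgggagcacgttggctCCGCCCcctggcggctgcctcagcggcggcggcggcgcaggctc
CDKN3, chr14:54396757-54397006, plus strand: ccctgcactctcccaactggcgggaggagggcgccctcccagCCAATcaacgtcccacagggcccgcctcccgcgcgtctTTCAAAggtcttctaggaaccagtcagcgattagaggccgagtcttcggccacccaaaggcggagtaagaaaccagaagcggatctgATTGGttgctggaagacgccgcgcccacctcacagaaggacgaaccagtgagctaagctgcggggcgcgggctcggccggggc

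The 7 members in the promoter table had 10 such windows in all, and CDKN1C had none there. Of 35116 windows of this length in the table, 42.6% held a GC box, 32% a CCAAT box, 13.3% the cell cycle homology region, 6.34% an E-box and 2.98% the forkhead motif. Among the windows of members, the cell cycle homology region was found in CDKN3 alone, 170 bases before the RefSeq start, with CCAAT boxes beginning 208 and 83 bases before it. Distances here refer to RefSeq starts, which can differ from the GENCODE gene bodies given below. The GENCODE bodies of CDKN3 (plus strand, from 54396849) and CDKN2D (minus strand, from 10569059) begin inside the windows shown. E-boxes were found only in CDKN2C, in the window shown (69 bases before the start) and in that of another start of the gene. The window of CDKN1A held 4 GC boxes and none of the other motifs. GC boxes alone were also found in a window of CDKN2A (1), of CDKN2B (2) and of CDKN2C (5, at a start not shown). The forkhead motif was in none of the 10 windows. A match is a stretch of letters and not a measured binding site, and the count files hold 1 value per gene, so the starts of a gene could not be told apart.

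Of the 8 genes, 5 rose with treatment, 1 fell and 2 did not pass the test. CDKN2B, CDKN1B, CDKN2C, CDKN2D and CDKN3 rose, CDKN1A fell, and the differences for CDKN2A and CDKN1C did not pass. Among all 16452 genes tested, 58.0% passed the same test (29.8% higher and 28.3% lower), so that a call by itself was common in these data. The median log2 fold change of the 8 genes was 0.51, against 0.02 for all tested genes. In the 6 called members no MARK3i library overlapped a control, with 5 members above and 1 below. Groups without overlap were found for 51.0% of all tested genes (25.8% with MARK3i above and 25.1% below). Fold changes are MARK3i minus control on the log2 scale, ± SE, with n = 4 libraries per group. Adjusted p-values come from edgeR (quasi-likelihood, Benjamini-Hochberg over all tested genes), except in the DESeq2 and limma-voom alternatives. Levels are in CPM, counts scaled to library size with TMM factors, given as mean ± SD.

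**Figure D1:**
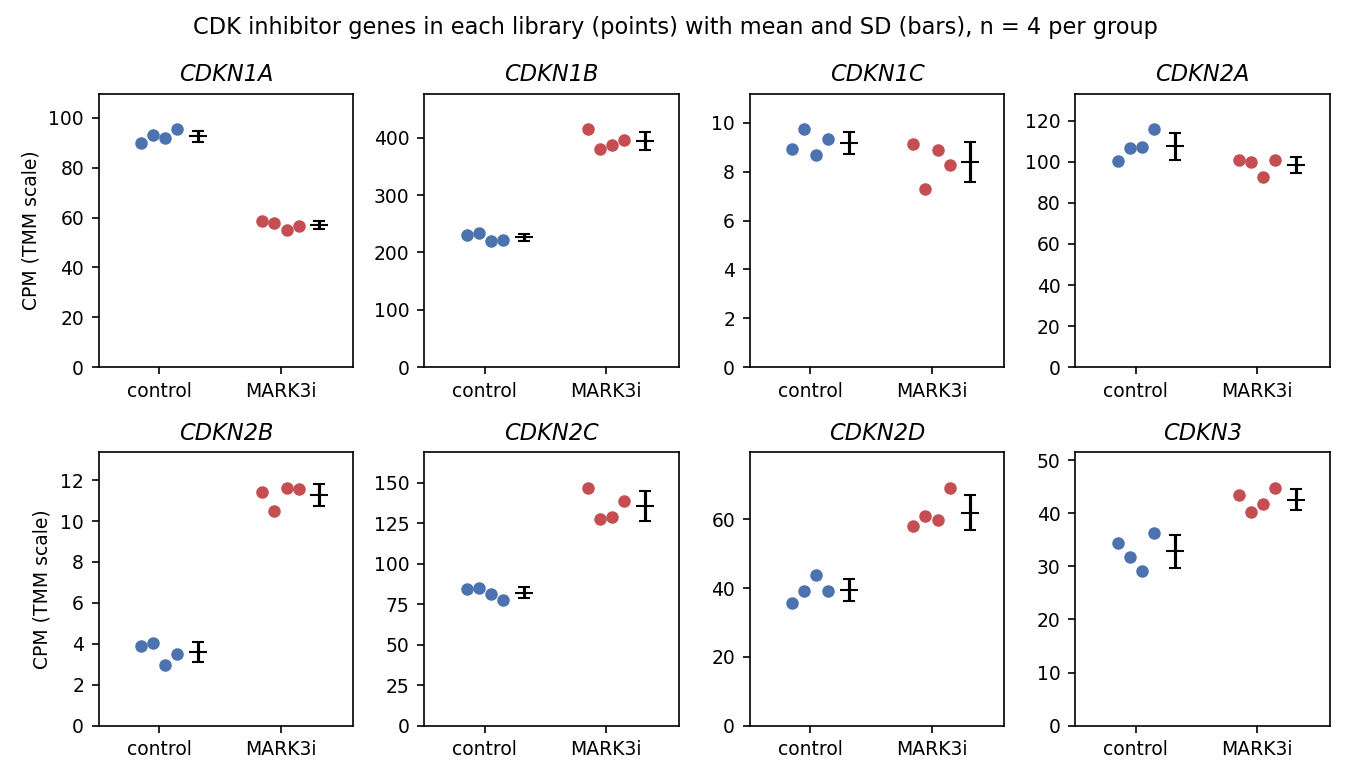
Level of each CDK inhibitor gene (CPM on the TMM scale, vertical axis from 0) in the 4 control (blue) and 4 MARK3i (red) libraries, with the mean and SD as black bars. The groups are apart in 6 panels, CDKN1A is the one in which MARK3i lies below control, and they overlap for CDKN1C and CDKN2A.

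The CIP/KIP genes moved in different directions. CDKN1B (ENSG00000111276; chromosome 12, 12685498 to 12722369, hg38, plus strand), which encodes p27, was at 229.9, 233.8, 219.4 and 222.3 CPM in control replicates 1 to 4 and at 414.9, 379.5, 387.5 and 395.7 CPM in MARK3i replicates 1 to 4. The lowest MARK3i library was 1.62 times the highest control. It rose from 226.4 ± 6.66 to 394.4 ± 15.1 CPM, which is 1.74-fold (0.80 ± 0.05, adjusted p = 3.13e-12, edgeR). These levels rest on 2676 to 8444 counts per library, the most of any member.

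CDKN1A (ENSG00000124762; chromosome 6, 36676460 to 36687337, plus strand) encodes p21, the inhibitor best known for its rise after DNA damage. Its control libraries stood at 89.8, 93.1, 92.0 and 95.5 CPM and its MARK3i libraries at 58.6, 57.8, 55.1 and 56.8 CPM. Both groups were tight, with a coefficient of variation of 2.54% in controls and 2.64% in MARK3i, and the lowest control was 1.53 times the highest MARK3i library. CDKN1A fell 1.62-fold (−0.70 ± 0.06, adjusted p = 3.98e-10, edgeR). Because CDKN1B rose and CDKN1A fell, their ratio of counts differed between the groups. This ratio does not depend on library scaling, but the genes differ in the GC content of their transcripts (41.9% for CDKN1B and 60.1% for CDKN1A). There were 2.33 to 2.56 CDKN1B counts per CDKN1A count in controls and 6.56 to 7.08 in MARK3i libraries.

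CDKN1C (ENSG00000129757; chromosome 11, 2883213 to 2885775, minus strand) encodes p57, whose gene is imprinted. It was at 8.93, 9.74, 8.69 and 9.36 CPM in controls and at 9.13, 7.28, 8.90 and 8.30 CPM in MARK3i libraries. The groups overlapped and the difference did not pass the test (−0.14 ± 0.12, adjusted p = 0.333, edgeR). The 95% interval ran from −0.38 to 0.11, so a change of the size seen for CDKN1B or CDKN1A lies outside it.

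Of the 4 INK4 genes, 3 rose and none fell. CDKN2B (ENSG00000147883; chromosome 9, 22002903 to 22009305, minus strand), which encodes p15, a known target of TGF-beta signalling, had the largest fold change of the members. It was at 3.92, 4.04, 2.95 and 3.51 CPM in controls and at 11.4, 10.5, 11.6 and 11.5 CPM in MARK3i libraries. Every MARK3i library was at least 2.59 times the highest control. The rise was 3.11-fold (1.64 ± 0.14, adjusted p = 1.67e-10, edgeR) and ranked 174 from the top of 16452 genes. It started from a low level, 36 to 51 counts per control library against 164 to 233 per MARK3i library.

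CDKN2C (ENSG00000123080; chromosome 1, 50960745 to 50974634, plus strand), which encodes p18, was at 84.0, 85.1, 81.2 and 77.7 CPM in controls and at 146.8, 127.5, 128.8 and 138.6 CPM in MARK3i libraries. The MARK3i libraries all lay above the controls, with MARK3i replicate 1 the highest. CDKN2C rose 1.65-fold (0.72 ± 0.06, adjusted p = 3.79e-10, edgeR). CDKN2D (ENSG00000129355; chromosome 19, 10566460 to 10569059, minus strand), which encodes p19, was at 35.7, 39.2, 43.8 and 39.2 CPM in controls and at 57.9, 61.0, 59.7 and 69.2 CPM in MARK3i libraries. The groups did not overlap and MARK3i replicate 4 was the highest. CDKN2D rose 1.57-fold (0.65 ± 0.08, adjusted p = 7.48e-08, edgeR).

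CDKN2A (ENSG00000147889; chromosome 9, 21967752 to 21995301, minus strand) yields p16 and, from another start and reading frame, p14ARF, and a count per gene cannot tell these transcripts apart. It was at 100.3, 106.8, 107.1 and 115.9 CPM in controls and at 100.9, 99.8, 92.8 and 100.9 CPM in MARK3i libraries. Control replicate 1 fell among the MARK3i values, so the groups overlapped. The difference did not pass the test (−0.13 ± 0.06, adjusted p = 0.082, edgeR; 95% interval −0.25 to 0.00). It did pass without control replicate 1 (−0.16, adjusted p = 0.042) and without MARK3i replicate 1 (−0.15, adjusted p = 0.0438). With control replicates 3 and 4 only it also passed (−0.18, adjusted p = 0.0495). Scaling by total counts alone gave −0.02 (adjusted p = 0.781, edgeR). Offsets for the GC content of transcripts gave 0.04 (adjusted p = 0.58, edgeR). Over all 20 alternatives the adjusted p ran from 0.042 to 0.781. CDKN2A and CDKN2B lie 7602 bp apart on the same strand. The number of CDKN2B counts per CDKN2A count was 0.0276 to 0.039 in controls and 0.105 to 0.125 in MARK3i libraries.

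CDKN3 (ENSG00000100526; chromosome 14, 54396849 to 54420218, plus strand), the CDK2 phosphatase gene, was at 34.3, 31.8, 29.0 and 36.2 CPM in controls and at 43.5, 40.2, 41.7 and 44.8 CPM in MARK3i libraries. The lowest MARK3i library was 1.11 times the highest control, the narrowest gap of the 6 called members. CDKN3 rose 1.29-fold (0.37 ± 0.08, adjusted p = 0.000227, edgeR). Of the 6 called members it had the smallest change, ranked 3728 from the top.

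**Figure D2:**
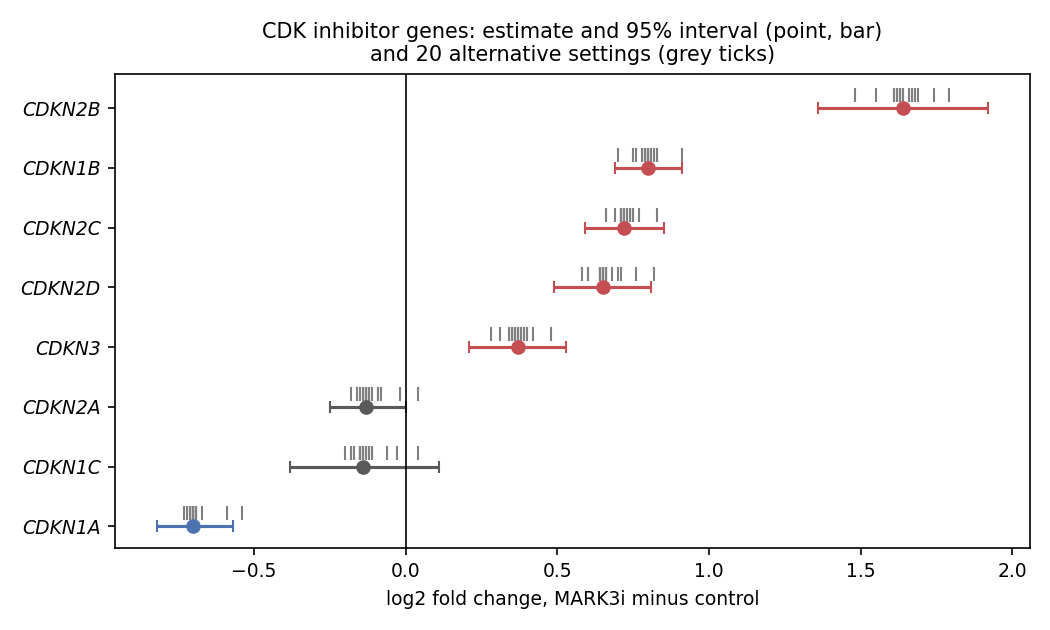
Log2 fold change of each member (MARK3i minus control, horizontal axis) with its 95% interval from edgeR, red for higher, blue for lower and grey for not passing, and grey ticks for the 20 alternative settings. CDKN2B is at 1.64, CDKN1A at −0.70, and the ticks of these and the other 4 called members stay on 1 side of 0, whereas those of CDKN2A and CDKN1C reach from −0.18 and −0.20 to 0.04.

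The estimates depended moderately on scaling and GC content. Scaling by total counts alone shifted the median over tested genes from 0.02 to 0.126, and 63.6% of calls were then higher, against 51.3%. CDKN1A was then at −0.59, CDKN1B at 0.91 and CDKN3 at 0.48. Offsets were also fitted per library against the GC content of transcripts (GC offsets). With them CDKN1A was at −0.54, CDKN1B at 0.70, CDKN2D at 0.82 and CDKN3 at 0.28. The mean GC content of the annotated transcripts was 60.1% for CDKN1A, 41.9% for CDKN1B, 61.4% for CDKN2D and 42.9% for CDKN3. The 6 calls held under these and the other alternatives.

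Levels of different genes can be compared only per length. Per kb of merged exons, control libraries held most CDKN1A (30.9 ± 0.786 CPM per kb), followed by CDKN2A (27.7 ± 1.65), CDKN2C (27.2 ± 1.10), CDKN2D (26.2 ± 2.20) and CDKN1B (24.5 ± 0.720). CDKN2A, CDKN2C and CDKN2D lay within their spread of each other. CDKN3 followed at 17.9 ± 1.70, and CDKN1C (3.70 ± 0.188) and CDKN2B (0.901 ± 0.123) were far below. In MARK3i libraries the order began with CDKN2C (44.9 ± 3.01), CDKN1B (42.6 ± 1.64) and CDKN2D (41.2 ± 3.32), which lay within their spread of each other. CDKN1A came sixth of the 8 there, at 19.1 ± 0.504 CPM per kb, and CDKN2B stayed the lowest at 2.82 ± 0.134.

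The order depends on the length used. The merged exons and the canonical transcript differ most for CDKN2A (3885 and 978 bp), CDKN1B (9255 and 2411 bp) and CDKN2C (3018 and 995 bp), and CDKN1A (2996 and 2117 bp) was highest in controls on the merged scale and below these 3 genes on the canonical one. Per kb of canonical transcript, CDKN2A (110 ± 6.56), CDKN1B (93.9 ± 2.76) and CDKN2C (82.4 ± 3.34) led in controls, and CDKN1B (164 ± 6.28), CDKN2C (136 ± 9.12) and CDKN2A (101 ± 4.00) in MARK3i libraries. CDKN1C and CDKN2B were the lowest on both scales. On the canonical scale the summed level of the 8 genes was 396 to 411 CPM per kb in controls and 511 to 551 in MARK3i libraries. CDKN1B made up 22.4 to 24.0% of that sum in controls and 30.2 to 31.5% in MARK3i libraries, and CDKN1A 10.7 to 11.0% and 4.94 to 5.33%. The share of the CIP/KIP genes together was 34.7 to 36.0% and 36.0 to 37.6% on that scale, and 36.6 to 37.6% and 30.9 to 32.8% per kb of merged exons, so its direction differed between the scales.

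**Figure D3:**
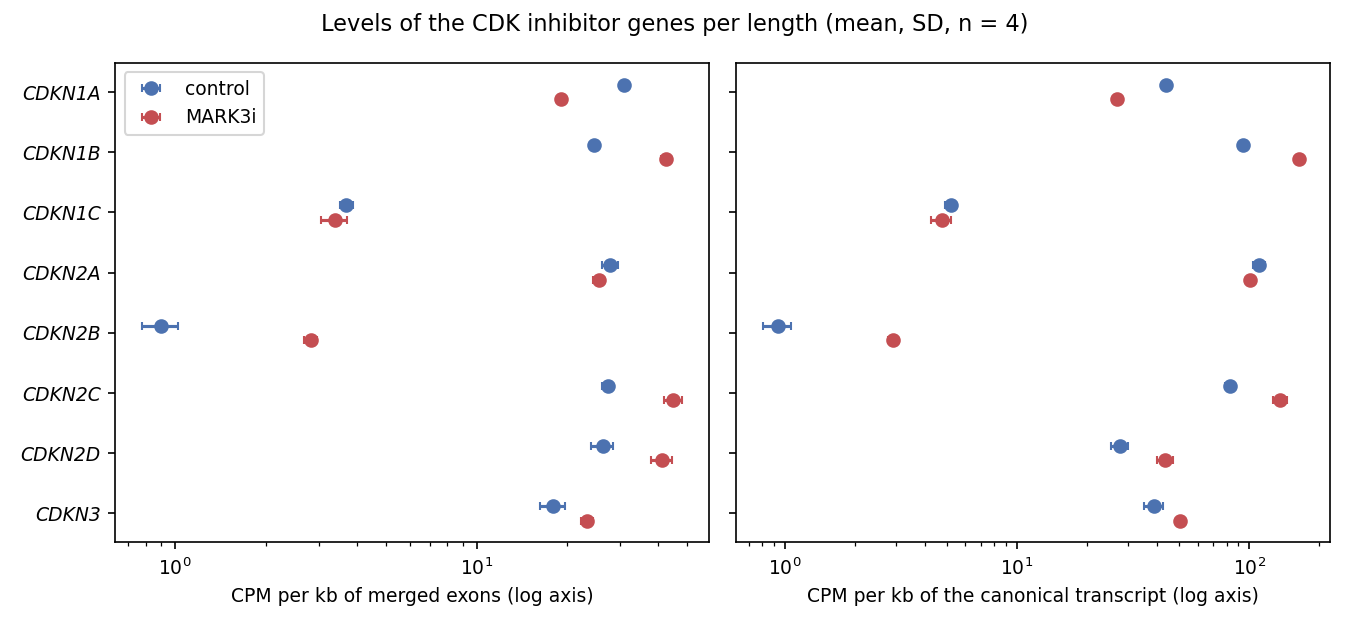
Levels of the members in CPM per kb (horizontal log axes; points are means and bars SD of 4 libraries, blue control and red MARK3i), by merged exon length on the left and by canonical transcript length on the right. CDKN2B and CDKN1C are the lowest on both, and CDKN1B stands at 42.6 CPM per kb of merged exons and 164 per kb of canonical transcript in MARK3i libraries.

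The kinases and cyclins that the inhibitors bind were split. Of 13 listed, 11 had enough counts, of which 4 were higher, 4 lower and 3 did not pass (median −0.00). Over all tested genes 29.8% were higher and 28.3% lower, the shares beside which this and the later list counts are to be read. Among INK4 targets, CDK4 fell (218 ± 3.33 to 119 ± 1.85 CPM; −0.87 ± 0.05, adjusted p = 5.3e-13) and CDK6 rose (28.9 ± 1.07 to 41.2 ± 2.37 CPM; 0.51 ± 0.07, adjusted p = 1.92e-06). Their D-type partners CCND1 (−0.00 ± 0.06, adjusted p = 0.987) and CCND3 (0.04 ± 0.07, adjusted p = 0.604) did not pass, although CCND1 was at 0.18 and CCND3 at 0.19, both called, with the GC offsets. Among CIP/KIP targets, CDK2 (−0.60 ± 0.06), CCNE1 (−0.79 ± 0.13) and CCNE2 (−0.43 ± 0.12) fell. The S-phase cyclin CCNA2 (0.22 ± 0.07) and the mitotic cyclins CCNB1 (0.20 ± 0.06) and CCNB2 (0.21 ± 0.06) rose slightly, and CDK1 did not pass (−0.02 ± 0.06, adjusted p = 0.818). CCNA2 lost its call with the GC offsets and without control replicate 3 or MARK3i replicate 1, and CCNA2, CCNB1 and CCNE2 each lost it with only 2 of the control libraries.

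Genes of the RB and E2F families, which act downstream of these kinases, fell more often than they rose. The median over 13 genes was −0.55, with 8 called lower, 1 called higher and 4 without a call. The activating E2F genes E2F1 (−1.42 ± 0.06), E2F2 (−1.45 ± 0.07) and E2F3 (−1.18 ± 0.11) fell, as did the dimer partner TFDP1 (−0.73 ± 0.06). RB1 did not pass (−0.14 ± 0.09, adjusted p = 0.192), although it did with the GC offsets (−0.24) and with control replicates 1 and 2 only (−0.29). Its relative RBL1, which encodes p107, fell (−0.63 ± 0.09), and RBL2, which encodes p130, rose (0.26 ± 0.07), a call that ended with control replicates 1 and 2 only (0.11). The MuvB core pairs with p130 in the DREAM complex to silence cell cycle genes, or with B-MYB to activate them. Of 8 genes listed for these complexes, 2 were higher, 3 lower and 3 did not pass. Those higher were MYBL1 (0.30 ± 0.11) and DYRK1A (0.24 ± 0.07), which encodes a kinase and not a subunit. The MYBL1 call was lost with DESeq2, with the GC offsets and in other alternatives, and the DYRK1A call with control replicates 1 and 2 only. MYBL2, which encodes B-MYB, fell (−0.89 ± 0.06), as did the histone-binding subunit gene RBBP4 (−0.75 ± 0.05).

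CDKN3 is itself expressed late in the cell cycle, and G2/M genes were examined beside it. Over 23 genes the median was 0.40, against 0.37 for CDKN3, with 18 called higher, 1 called lower and 4 without a call. BUB1 (0.83 ± 0.07), CKAP2 (0.68 ± 0.07), KIF20A (0.67 ± 0.07) and PTTG1 (0.56 ± 0.06) rose, and the mitotic transcription factor gene FOXM1 fell (−0.34 ± 0.06).

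**Figure D4:**
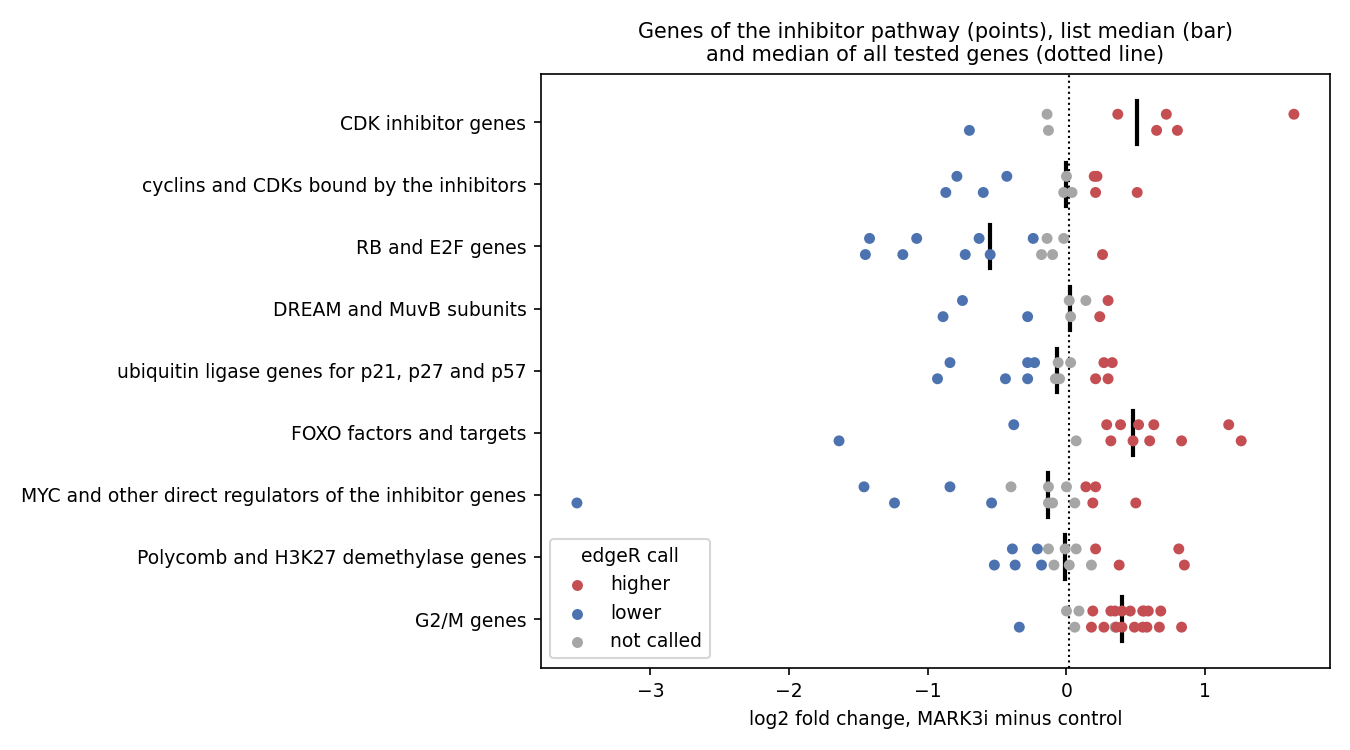
Log2 fold changes (MARK3i minus control, horizontal axis) of the tested genes of each list as points, red for higher, blue for lower and grey for not passing, with the list median as a black bar and the median of all tested genes as a dotted line. The bar of the RB and E2F genes is at −0.55, that of the FOXO list at 0.48 and that of the CDK inhibitor genes at 0.51.

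Genes for the removal of p21, p27 and p57 proteins were also split, with 4 of 14 higher, 6 lower and 4 not passing (median −0.07). SKP2, the substrate receptor that marks p27 for degradation, fell (59.7 ± 4.16 to 49.3 ± 1.91 CPM; −0.28 ± 0.07, adjusted p = 0.00132), a call that ended with control replicates 3 and 4 only (−0.20, adjusted p = 0.0526). Its cofactor CKS1B did not pass (−0.05 ± 0.06, adjusted p = 0.508). The subunit genes of the KPC ligase, which acts on p27 in G1, went apart, with RNF123 higher (0.33 ± 0.07) and UBAC1 lower (−0.28 ± 0.06). For p21, the substrate receptor gene DTL (−0.93 ± 0.07), PCNA, on which DTL meets its substrates (−0.84 ± 0.06), and the proteasome activator gene PSME3 (−0.44 ± 0.06) fell.

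FOXO factors are known to activate CDKN1B. Of 13 genes of the FOXO list, 10 were higher, 2 lower and 1 did not pass (median 0.48). FOXO3 rose from 58.6 ± 4.31 to 90.5 ± 4.09 CPM (0.63 ± 0.07, adjusted p = 1.44e-08) and FOXO1 from 13.1 ± 1.62 to 17.2 ± 0.749 CPM (0.39 ± 0.10, adjusted p = 0.00198). Of the other factor genes, FOXO4 rose (0.52 ± 0.08) and FOXO6 fell (−0.38 ± 0.14, adjusted p = 0.0252, edgeR). The FOXO6 call was lost with DESeq2, with the GC offsets (−0.11) and in other alternatives. The targets SESN3 (1.26 ± 0.08), CCNG2 (1.17 ± 0.07) and PIK3IP1 (0.83 ± 0.08) rose, and BCL6 fell (−1.64 ± 0.07).

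MYC, known to repress CDKN1A and CDKN2B together with the ZBTB17 protein MIZ1, fell from 378 ± 8.55 to 32.8 ± 2.99 CPM (−3.53 ± 0.07, adjusted p = 4.75e-23), while ZBTB17 did not pass (−0.00 ± 0.07, adjusted p = 0.984). TFAP4, a MYC target that represses CDKN1A, fell (−1.24 ± 0.09), as did KLF4, an activator of CDKN1A (−0.84 ± 0.08), and ETS2, an activator of CDKN2A (−1.46 ± 0.09). SMAD4, which carries the TGF-beta signal to CDKN2B, rose (0.50 ± 0.07), and SMAD3 did not pass (−0.10 ± 0.09, adjusted p = 0.323). In all, 4 of the 15 genes of that list were higher, 5 lower and 6 did not pass (median −0.13). Polycomb proteins silence the CDKN2A and CDKN2B locus in many cells. Of 15 Polycomb and H3K27 demethylase genes, 4 were higher, 5 lower and 6 did not pass (median −0.01). JARID2 (0.85 ± 0.09) and BMI1 (0.81 ± 0.07) rose, and CBX2 (−0.52 ± 0.09) and the methyltransferase gene EZH2 (−0.21 ± 0.06) fell. EZH2 was at −0.10, and not called, with total counts. CBX7 rose slightly (0.21 ± 0.07, adjusted p = 0.016), a call that ended without MARK3i replicate 2 (0.13, adjusted p = 0.108) and with either pair of control libraries.

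The genes beside the members were examined for shared change and shared reads. Within 100 kb of a member 24 other genes were tested, of which 6 were higher, 7 lower and 11 did not pass (median −0.05). These counts are close to the shares over all tested genes, 29.8% higher and 28.3% lower. At the CDKN1B locus both flanking genes rose. APOLD1, 3548 bp downstream on the same strand, rose from 21.1 ± 1.63 to 40.0 ± 3.74 CPM (0.92 ± 0.09, adjusted p = 1.51e-09, edgeR). CREBL2, 40390 bp upstream of the annotated gene body, rose from 111 ± 11.7 to 148 ± 14.0 CPM (0.42 ± 0.07, adjusted p = 4.76e-05, edgeR). That body begins at 12685498, before the promoter window shown (12717118 to 12717367), and distances and overlaps refer to the whole body. GPR19, which overlaps CDKN1B on the opposite strand, was at 1.90 ± 0.520 and 1.57 ± 0.286 CPM and did not pass (−0.28 ± 0.25, adjusted p = 0.345). Left of CDKN1A, the nearest tested gene SRSF3, a splicing factor gene 70860 bp away, fell (−0.38 ± 0.05).

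At chromosome 9 the members and their neighbours did not move as 1 block. MTAP, 30101 bp from CDKN2A, fell (62.0 ± 3.39 to 46.0 ± 3.90 CPM; −0.43 ± 0.07, adjusted p = 1.66e-05) while CDKN2B rose. The antisense RNA gene CDKN2B-AS1, which overlaps both CDKN2A and CDKN2B on the opposite strand and can recruit Polycomb proteins, was at 2.24 ± 0.270 and 2.33 ± 0.377 CPM (0.07 ± 0.21, adjusted p = 0.786). The strand setting of the counting is not known here, and without strand the reads of overlapping genes on opposite strands cannot be told apart.

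The genes nearest to the other members mostly did not pass. FAF1, 478 bp from CDKN2C on the opposite strand, did not pass (−0.06 ± 0.06, adjusted p = 0.457), nor did KRI1, 429 bp from CDKN2D (0.04 ± 0.07, adjusted p = 0.591), although with the GC offsets FAF1 (−0.13) and KRI1 (0.17) did. AP1M2, on the other side of CDKN2D, rose slightly (0.18 ± 0.06), except with control replicates 3 and 4 only (0.14, adjusted p = 0.127). CNIH1, 3343 bp from CDKN3, did not pass (0.15 ± 0.07, adjusted p = 0.0823), and passed in 6 of the 20 alternatives. Near CDKN1C, SLC22A18 did not pass (−0.04 ± 0.11, adjusted p = 0.759), and KCNQ1 rose (0.90 ± 0.30, adjusted p = 0.012) at 7 to 35 counts per library, a call lost with DESeq2, without control replicate 3 or MARK3i replicate 3, and with control replicates 1 and 2 only. KCNQ1OT1, the antisense RNA gene of this imprinted region, did not pass (−0.04 ± 0.18, adjusted p = 0.872).

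**Figure D5:**
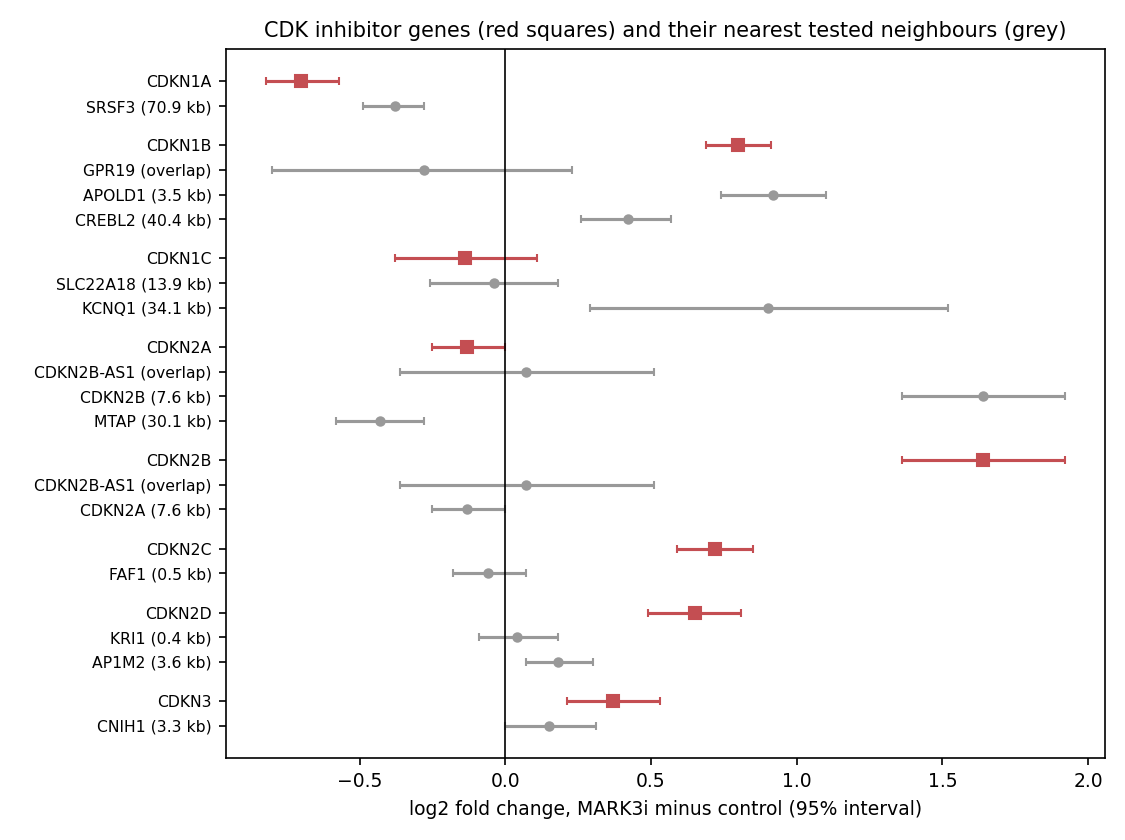
Log2 fold change with 95% interval (MARK3i minus control, horizontal axis) of each member (red squares) and of its overlapping and nearest tested genes on either side (grey points, with the distance in kb). APOLD1 is at 0.92 beside CDKN1B at 0.80, and FAF1 and KRI1 are near 0 beside CDKN2C and CDKN2D.

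For each called member the 3 genes with the most similar pattern were sought among 10269 other genes of at least 10 CPM, by Pearson's r of log2 CPM over the 8 libraries. All 8 points share the split into control and MARK3i, so a high r mostly marks a gene with the same split and little spread, and no test was made. CDKN1A was most like ASPHD1, PA2G4 and PES1 (r = 0.998 to 0.999) and CDKN1B most like MAPRE2, CREG1 and ANTXR2 (r = 0.997 for each). The genes most like CDKN2B were ZNF845, KBTBD2 and FRG1HP, and those most like CDKN2C were SDCBP, ARL6IP1 and NAP1L2 (r = 0.997 to 0.999). CDKN2D, with MTIF3, B3GALT4 and SCAMP2 (r = 0.987 to 0.990), and CDKN3, with PTS, RTN4 and MORN2 (r = 0.978 to 0.985), had less close matches.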

How the data were processed

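Total RNA of 22Rv1 cells was sequenced, and the authors deposited whole-number counts per Ensembl gene, made by alignment to hg38 and featureCounts and analysed with DESeq2, per the submitters' processing notes and series text. For the aligner, annotation, tool versions and strand setting the sources used here give nothing. Every row carried an Ensembl identifier. Symbols, positions, exon lengths and transcript GC content came from GENCODE release 44 (58207 of 58735 identifiers matched). Groups and replicate numbers came from the sample titles.

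Counts were tested with edgeR 4.0.16 (R 4.3.3): filterByExpr, TMM factors, robust glmQLFit and glmQLFTest on the group alone, with a call at an adjusted p under 0.05 over 16452 genes. The SE is the absolute log2 fold change divided by the square root of F. The procedure was tested on simulated data. It recovered 52% of genes changed 1.25-fold, 72% at 1.5-fold, 96% at 2-fold and 100% at 4-fold, so small changes can go uncalled. The simulated spread followed the trend over genes, and recovery in the real data may differ. Lists are described by counts and medians only, and some listed genes are not reported here.

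The members and lists were chosen with earlier results of these data known. Named are the members, genes set by name, up to 4 called genes per direction and list, overlapping and nearest tested genes within 100 kb, and the 3 genes most like each called member; others were chosen after their values were seen. Alternatives tried included scaling by RLE, by upper quartile and by total counts, no filter or 1 CPM in 4 libraries, DESeq2 1.42.0, limma-voom (limma 3.58.1), the replicate number as a block, libraries left out, only 2 controls, GC offsets, thinning and a threshold of 0.01. Canonical transcript length was added after seeing the data.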

Additional observations from a re-analysis of the deposited data

Results flagged for a closer look

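Among the values of 89 genes in the 2 groups, 8 of 178 groups of 4 libraries held 1 library whose gap to the nearest other exceeded Dixon's 95% critical value, and chance flags about 1 in 20. Of the members, CDKN2A was at 92.8 CPM in MARK3i replicate 3 (99.8 to 101 in the others) and CDKN2B at 10.5 CPM in MARK3i replicate 2 (11.4 to 11.6 in the others). In control replicate 2, CBX2 was at 22.8 CPM (others 20.1 to 20.5) and KDM6A at 30.7 (others 27.2 to 27.5). In control replicate 4, PCNA was at 359 CPM (others 351 to 353). In MARK3i replicate 4, COPS5 was at 91.2 CPM (others 84.3 to 85.2) and KCNQ1OT1 at 3.66 (others 5.18 to 5.44), and in MARK3i replicate 2, RNF123 was at 70.9 CPM (others 62.5 to 63.7).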

How the results depend on the processing

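The 5 rises and 1 fall among the members kept their direction and call in all 20 alternative fits, with ranges of 1.48 to 1.79 (CDKN2B), 0.70 to 0.91 (CDKN1B), 0.66 to 0.83 (CDKN2C), 0.58 to 0.82 (CDKN2D), 0.28 to 0.48 (CDKN3) and −0.73 to −0.54 (CDKN1A). CDKN2A was called lower with control replicates 3 and 4 only (−0.18), which made 2 members lower, and ranged from −0.16 to −0.09 when 1 library was left out, with 1 to 2 members lower. CDKN1C was called in none. The replicate number as a block changed no call of a member (CDKN1B 0.80, CDKN1A −0.70; 4912 genes higher and 4684 lower). The labels do not say whether the numbers pair the samples. Deviations of same-numbered libraries correlated at 0.131, −0.088, −0.053 and 0.084 for numbers 1 to 4. Those of differently numbered libraries correlated at −0.161 to 0.129. With 4 libraries per group these values cannot settle whether same-numbered libraries share a culture or day. Per kb of canonical transcript, which is shorter than the merged exons, control and MARK3i levels were 43.7 and 27 (CDKN1A), 93.9 and 164 (CDKN1B), 5.18 and 4.74 (CDKN1C), 110 and 101 (CDKN2A), 82.4 and 136 (CDKN2C) and 39.0 and 50.6 (CDKN3).

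With control replicates 1 and 2 only, 2 cyclin and CDK genes were higher, 0 RB and E2F genes, 0 DREAM and MuvB genes and 2 regulators of the inhibitor genes. DREAM and MuvB genes higher were 1 with DESeq2, with GC offsets and at 0.01, and 1 to 2 with 1 library left out. FOXO genes lower were 1 with total counts, with DESeq2, with GC offsets, at 0.01 and with either pair of controls, and 1 to 2 with 1 library left out. Regulators higher were 1 at 0.01 and 2 to 3 with 1 library left out, and Polycomb genes lower were 2 with total counts. CCND1 was at 0.18 with GC offsets, and the cause was not tested. Low counts went with wide intervals: CDKN2B-AS1, at 24 to 62 counts per library, had a 95% interval from −0.36 to 0.51.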
